A study of Homo sapiens with 13 samples.

Results

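The CXC and CC chemokines described here were 10 genes, CXCL1, CXCL2, CXCL3, CXCL5, CXCL6, CXCL8, CXCL12, CCL2, CCL7 and CCL20, found in the count table by the Ensembl identifiers of their symbols. They were 10 of the 43836 genes in the table, and all 10 were among the 17092 genes with enough reads to be tested. The RNA came from hFOB 1.19, human fetal osteoblasts (bone-forming cells) kept as an immortalized line, and was sequenced after polyA selection. The study compared serum-starved osteoblasts with osteoblasts given serum or a plant polyphenol, and 12 libraries in 5 groups were analysed. The 2 positive control libraries (PC) came from cells in medium with 10% fetal bovine serum (FBS), and the 2 negative control libraries (NC) from cells in medium without FBS. Per the study's methods both controls also received the vehicle, dimethyl sulfoxide. The other groups received a compound at 1 µg/mL: 3 libraries labelled RES (resveratrol, a stilbene), 3 labelled POG (peonidin-3-O-glucoside, an anthocyanin) and 2 labelled DEG. The treatment protocol in the labels also names the anthocyanin delphinidin-3-glucoside, but DEG itself is not spelled out. A further DEG sample had no column in the table and was not analysed here. Per the methods RES and POG were added to serum-starved cells. For DEG the sources used here give no serum condition, and they give no treatment time for the RNA of any compound group. All libraries came from a single cell line kept dividing by a viral large T antigen, with no leukocytes or osteoclasts in the culture to receive these signals. The labels do not say whether the libraries of a group came from separate cultures, so p-values measure only the spread between these samples, which may be technical. In bulk RNA, fewer cells that express a gene and less of its RNA per cell cannot be told apart.

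Chemokines are small secreted proteins that direct migrating cells through receptors coupled to G proteins. CXCL1, CXCL2, CXCL3, CXCL5, CXCL6 and CXCL8 (interleukin 8) carry a glutamate-leucine-arginine motif before their first cysteines and attract neutrophils. They act on the receptor CXCR2, and some of them also on CXCR1. CXCL12 acts on CXCR4 and holds blood-forming cells in bone marrow. CCL2 and CCL7 attract monocytes, which include precursors of bone-resorbing osteoclasts, mainly through CCR2, and CCL20 acts on CCR6 of dendritic cells and T cells. Osteoblasts and marrow stromal cells are known sources of several of them, and transcription factors of the NF-kB and AP-1 families are known to drive many of their genes.

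The 6 neutrophil-attracting genes lay together on chromosome 4 of hg38, within 358678 bases that held 10 protein-coding genes. In GENCODE v44 their order was CXCL8 (chr4:73740519-73743716, plus strand), CXCL6 (chr4:73836640-73849064, plus), CXCL1 (chr4:73869393-73871308, plus), CXCL5 (chr4:73995642-73998677, minus), CXCL3 (chr4:74036589-74038807, minus) and CXCL2 (chr4:74097040-74099196, minus). The chemokine genes between them, PF4V1, PF4 and PPBP, which are known from platelets, had 3, 21 and 0 reads in all 12 libraries together, against 500746 for CXCL8 and 270938 for CXCL1. CCL2 (chr17:34255274-34257208, plus) and CCL7 (chr17:34270221-34272242, plus) lay next to each other on chromosome 17. Their next neighbours CCL11, CCL8, CCL13 and CCL1 had 13, 26, 3 and 0 reads in all libraries together. CXCL12 (chr10:44370165-44386493, minus) and CCL20 (chr2:227805739-227817564, plus) lay apart from these clusters.

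The promoters of the chromosome 4 genes are shown because these genes moved together in most comparisons below and share a sequence. RefSeq (GRCh38.p14) held a promoter entry for 9 of the 10 genes. The 120 bases before the RefSeq gene start are printed 5′ to 3′ on the gene's own strand, for 8 of them, and capitals mark matches to the NF-kB consensus or to GGAATTTCC. RefSeq and GENCODE starts are not the same for every gene. The CCL20 window lies inside the GENCODE gene, well past its start, the CXCL3 window lies almost wholly inside its gene, and those of CXCL6 and CXCL8 reach into theirs. The first 3 genes are close paralogs, as are the next pair.
CXCL1: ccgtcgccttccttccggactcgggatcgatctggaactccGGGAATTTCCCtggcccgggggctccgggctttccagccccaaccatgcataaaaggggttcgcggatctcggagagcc
CXCL2: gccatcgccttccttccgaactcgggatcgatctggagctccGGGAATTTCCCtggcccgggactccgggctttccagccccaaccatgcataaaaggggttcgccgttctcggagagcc
CXCL3: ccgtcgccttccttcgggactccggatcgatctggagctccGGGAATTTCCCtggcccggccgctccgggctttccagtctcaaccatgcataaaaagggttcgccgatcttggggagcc
CXCL5: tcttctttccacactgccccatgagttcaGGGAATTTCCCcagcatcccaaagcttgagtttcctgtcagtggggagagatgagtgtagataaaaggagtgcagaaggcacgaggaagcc
CXCL6: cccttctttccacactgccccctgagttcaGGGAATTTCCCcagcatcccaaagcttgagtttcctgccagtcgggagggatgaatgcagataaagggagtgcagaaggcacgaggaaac
CXCL8: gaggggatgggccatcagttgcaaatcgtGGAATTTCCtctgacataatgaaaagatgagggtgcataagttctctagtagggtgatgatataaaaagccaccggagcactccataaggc
CCL20: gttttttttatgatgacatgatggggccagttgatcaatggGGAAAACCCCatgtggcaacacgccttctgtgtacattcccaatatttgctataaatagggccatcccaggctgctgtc
CCL7: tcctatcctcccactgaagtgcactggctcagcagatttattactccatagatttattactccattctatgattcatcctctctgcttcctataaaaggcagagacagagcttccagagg
These windows were chr4:73869273-73869392 (plus strand, CXCL1), chr4:74099196-74099315 (minus strand, CXCL2), chr4:74038690-74038809 (minus strand, CXCL3), chr4:73998678-73998797 (minus strand, CXCL5), chr4:73836558-73836677 (plus strand, CXCL6), chr4:73740449-73740568 (plus strand, CXCL8), chr2:227813722-227813841 (plus strand, CCL20) and chr17:34270101-34270220 (plus strand, CCL7). Searched on both strands of the 250 bases before the start, the NF-kB consensus matched in 6 of the 9 promoters, those of CXCL1, CXCL2, CXCL3, CXCL5, CXCL6 and CCL20. The shorter GGAATTTCC, which lies inside the consensus match of the first 5 of these genes, also matched in 6, those 5 and CXCL8. In CXCL1 and CXCL3 the consensus match ended 70 bases before the start, in CXCL2 69, in CXCL5 82 and in CXCL6 81, and in CCL20 it lay on the opposite strand and ended at 70. Over all 35116 human promoters in that table the consensus was found in 5.91% and GGAATTTCC in 0.461%. No match was found in the promoters of CXCL12 and CCL7. For CXCL12 the 120 bases before the RefSeq start (chr10:44385098-44385217, minus strand, not printed) also lie inside the GENCODE gene, past its start. A match is a description of letters and says nothing of whether a factor was bound in these cells.

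The libraries held 38464619 to 51416358 counted reads each. Among the 17092 genes tested, 42.4% were called between PC and NC at a false discovery rate (FDR) under 0.05 in the edgeR exact test, 21.4% higher with serum and 20.9% lower. Scaling by plain library totals in place of TMM (trimmed mean of M-values) changed the share of higher genes among those called from 50.6% to 41.0% for PC, from 44.3% to 64.0% for RES, from 40.9% to 56.0% for POG and from 36.6% to 49.3% for DEG, each against NC. That scaling shifted the median log2 fold change over all genes by under 0.05, and no chemokine changed direction under it. PC replicate 1 was above PC replicate 2 for all 10 chemokines, by 1.02 to 1.15 times. The coefficient of variation between libraries of a group, in median over the 10 genes, was 4.76% in PC, 1.08% in NC, 2.65% in RES, 2.45% in POG and 2.51% in DEG.

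CXCL1 and CXCL8 were the most abundant of the 10 in every group. Per length, as reads scaled by exon length and library total (RPKM), the NC means were 453 for CXCL1, 337 for CXCL8 and 148 for CCL2. CXCL2 and CXCL6 followed with NC means of 54.8 and 52.9 RPKM, and CXCL5 and CXCL3 with 22.9 and 18.8 RPKM. The lowest NC means were 7.45 RPKM for CCL7, 4.12 for CCL20 and 3.69 for CXCL12. In PC and DEG the order of the leading genes was reversed, with means of 670 RPKM for CXCL8 and 485 for CXCL1 in PC and 293 and 285 in DEG. In counts, the precision differed widely between genes. CXCL8 rested on 29424 to 87951 reads per library, whereas CXCL12 rested on 505 to 939, CCL7 on 127 to 337 and CCL20 on 182 to 320. Of the 150-base words of CXCL2 and CXCL3, 1.96% and 1.15% occur exactly in the other gene. Shorter words and words with mismatches were not counted, so these shares may understate how far reads can be confused. CXCL5 shared 2.45% of its words with a long non-coding RNA on the opposite strand, and CXCL6 overlaps a pseudogene on its own strand. The strand setting of the counting was not given in the sources used here.

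**Figure D1:**
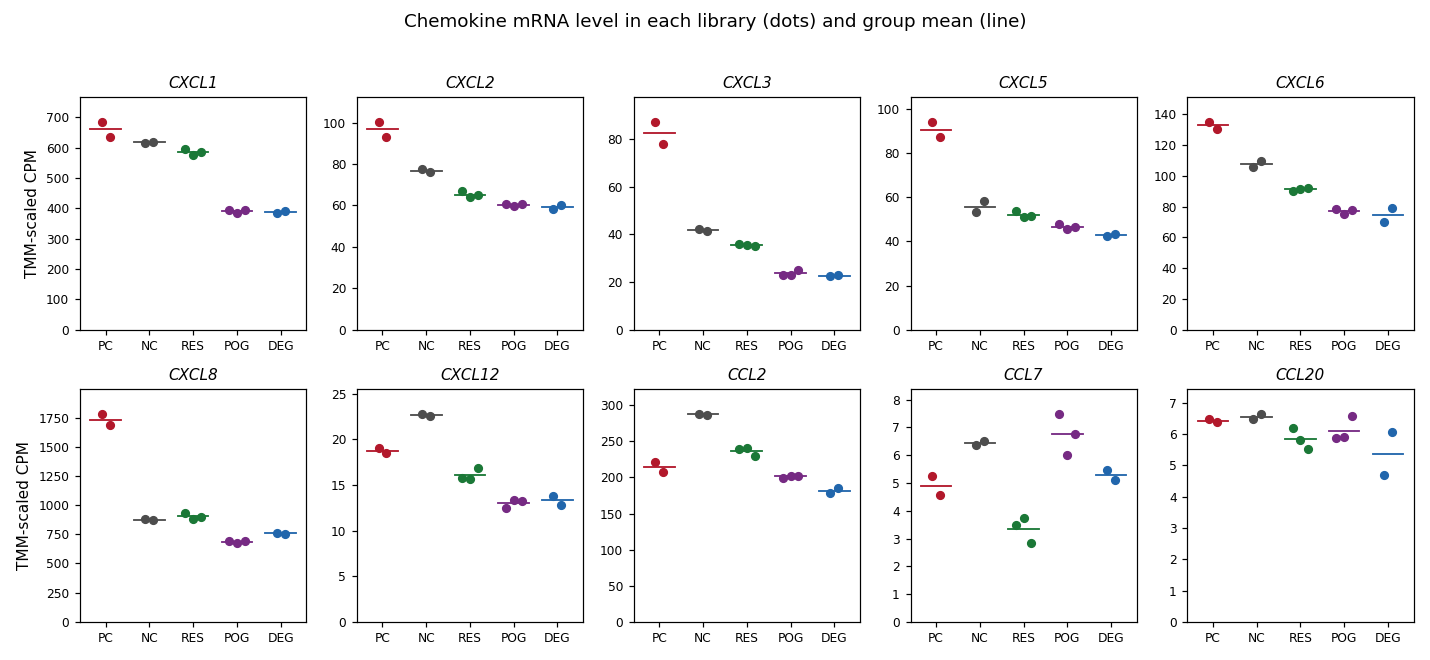
Each panel plots 1 chemokine, with the library's TMM-scaled CPM (read counts scaled to a common total) on the y axis from 0 and the 5 groups on the x axis, 1 dot per library and a line at the group mean. The neutrophil-attracting genes are highest in PC, CXCL12 and CCL2 are highest in NC, and CXCL1 and CXCL3 are lowest in POG and DEG.

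With serum the neutrophil-attracting chemokines were higher and CXCL12, CCL2 and CCL7 were lower. In CPM, read counts scaled to a common total, CXCL8 was 1779.7 and 1686 CPM in the PC libraries and 877 and 869 CPM in the NC libraries, a 1.99-fold difference (log2 fold change 0.99, SE 0.03, FDR 9.69e-157 by the edgeR exact test, as for every FDR below). CXCL3 was 87.1 and 77.8 CPM in PC and 42.1 and 41.6 CPM in NC, 1.97-fold higher with serum (log2 fold change 0.98, SE 0.05, FDR 1.74e-64). These were the largest rises of the 10, and PC and NC libraries of each gene lay far apart. CXCL5, an attractant made by many stromal and epithelial cells, was 94.1 and 87.2 CPM in PC and 53.2 and 58.3 CPM in NC (log2 fold change 0.70, SE 0.05, FDR 1.90e-39). CXCL2 was 100.2 and 93.2 CPM in PC against 77.4 and 76.0 CPM in NC (log2 fold change 0.34, SE 0.04, FDR 4.69e-12). CXCL6 was 135 and 131 CPM in PC against 106 and 109.7 CPM in NC (log2 fold change 0.30, SE 0.04, FDR 1.56e-09). The close paralogs thus rose by different amounts, and the 95% intervals of CXCL2 (0.25 to 0.43) and CXCL3 (0.87 to 1.09) did not overlap.

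CXCL1 was 684 and 636 CPM in PC and 615 and 619 CPM in NC. Its log2 fold change was only 0.10 (SE 0.03, FDR 0.0244), and the call was lost with plain library totals (FDR 0.240) and without PC replicate 1 (FDR 0.170), NC replicate 1 (FDR 0.140) or NC replicate 2 (FDR 0.0726). Without PC replicate 2 the log2 fold change was 0.16. CCL2 went the other way, at 221 and 208 CPM in PC and 288 and 287 CPM in NC (log2 fold change -0.42, SE 0.04, FDR 9.91e-25). CXCL12 was 19.0 and 18.5 CPM in PC and 22.8 and 22.6 CPM in NC (log2 fold change -0.27, SE 0.07, FDR 0.000536). For both genes every PC library lay below every NC library. How large a share of all genes tested had no overlap between groups was not computed, here or below. CCL7 was 5.24 and 4.55 CPM in PC and 6.35 and 6.51 CPM in NC (log2 fold change -0.39, SE 0.13, FDR 0.0110), a call lost without PC replicate 2 (FDR 0.135) or NC replicate 2 (FDR 0.0787). CCL20 was 6.48 and 6.38 CPM in PC and 6.48 and 6.64 CPM in NC and did not pass the test (log2 fold change -0.03, 95% interval -0.28 to 0.22, FDR 0.902). Between PC and NC 9 of the 10 chemokines were called, 6 higher and 3 lower, where the background was 42.4% of the genes tested. Their median log2 fold change was 0.20, against -0.01 over all genes tested, and the median size of the change was 0.36 against 0.21. The members and the lists below were chosen with earlier results of these data known. Shares and medians set against all genes, here and below, are therefore descriptions only.

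The compounds were compared with the same NC libraries, so their values are given side by side and share those controls. With RES 11.2% of the genes tested were called, 4.94% higher and 6.21% lower. With POG the shares were 14.5% in all, 5.93% higher and 8.57% lower, and with DEG 9.63% in all, 3.52% higher and 6.11% lower. Among the 10 chemokines 6 were lower with RES, 8 with POG and 8 with DEG. The genes lower with all 3 compounds were CXCL2, CXCL3, CXCL6, CXCL12 and CCL2. The share of all genes tested that were lower with all 3 was not computed, and the shared controls tie these calls together. The median log2 fold change of the 10 was -0.23 with RES, -0.42 with POG and -0.45 with DEG, where the median over all genes tested was 0.00 in each comparison.

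CXCL1 was 596, 577 and 586 CPM with RES, 393, 386 and 396 CPM with POG and 386 and 392 CPM with DEG, against 615 and 619 CPM in NC. It fell by 0.66 on the log2 scale with POG (SE 0.03, FDR 7.07e-79) and by 0.67 with DEG (SE 0.03, FDR 6.24e-65). With RES its libraries lay just below those of NC, but the difference did not pass the test (log2 fold change -0.07, FDR 0.159). That value passed when dispersions were estimated from RES and NC alone (FDR 0.0155).

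CXCL3 was 35.8, 35.7 and 35.3 CPM with RES, 23.0, 23.0 and 25.1 CPM with POG and 22.6 and 22.8 CPM with DEG, against 42.1 and 41.6 CPM in NC. Its log2 fold change was -0.23 with RES (SE 0.05, FDR 0.000718), -0.82 with POG (SE 0.05, FDR 1.98e-44) and -0.88 with DEG (SE 0.06, FDR 5.63e-40). The last was the largest fall of a chemokine with DEG. CXCL2, the paralog of CXCL1 and CXCL3, was 66.8, 64.0 and 64.9 CPM with RES, 60.5, 59.9 and 60.8 CPM with POG and 58.4 and 60.3 CPM with DEG, against 77.4 and 76.0 CPM in NC. Its log2 fold changes were -0.23 (RES, SE 0.04, FDR 4.75e-06), -0.34 (POG, SE 0.04, FDR 2.73e-13) and -0.37 (DEG, SE 0.05, FDR 4.01e-12). The intervals of CXCL2 with POG (-0.43 to -0.26) and DEG (-0.46 to -0.28) did not reach those of CXCL3 (-0.93 to -0.71 and -1.01 to -0.75), although all groups of libraries of both genes were apart from NC.

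CXCL6 was 90.1, 91.5 and 91.9 CPM with RES, 78.1, 74.9 and 77.5 CPM with POG and 70.2 and 79.4 CPM with DEG, against 106 and 109.7 CPM in NC. It changed by -0.24 (SE 0.04, FDR 1.74e-06), -0.49 (SE 0.04, FDR 1.56e-26) and -0.53 (SE 0.05, FDR 1.40e-24) on the log2 scale with RES, POG and DEG. Its paralog CXCL5 was 53.6, 50.9 and 51.4 CPM with RES, 48.0, 45.5 and 46.7 CPM with POG and 42.4 and 43.3 CPM with DEG, against 53.2 and 58.3 CPM in NC. CXCL5 fell by 0.25 with POG (SE 0.05, FDR 1.29e-05) and by 0.38 with DEG (SE 0.05, FDR 1.24e-09), but with RES its libraries overlapped those of NC (log2 fold change -0.10, SE 0.05, FDR 0.196). The NC libraries of CXCL5 differed by more than those of the other chemokines, with a coefficient of variation of 6.48%.

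CXCL8 was 930.4, 884 and 897 CPM with RES, 690.0, 676 and 692 CPM with POG and 760.1 and 754 CPM with DEG, against 877 and 869 CPM in NC. It fell by 0.35 with POG (SE 0.03, FDR 5.78e-23) and by 0.20 with DEG (SE 0.03, FDR 1.72e-06). With RES every library was above NC, by less than the test could call (log2 fold change 0.05, 95% interval -0.004 to 0.11, FDR 0.387).

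CXCL12 was 15.8, 15.6 and 16.9 CPM with RES, 12.5, 13.4 and 13.2 CPM with POG and 13.8 and 12.8 CPM with DEG, against 22.8 and 22.6 CPM in NC. Its log2 fold change was -0.49 (SE 0.07, FDR 2.31e-11), -0.80 (SE 0.07, FDR 4.88e-29) and -0.77 (SE 0.08, FDR 3.78e-21) with RES, POG and DEG. CCL2 was 239.7, 241 and 229 CPM with RES, 199.5, 203 and 202 CPM with POG and 178 and 185 CPM with DEG, against 288 and 287 CPM in NC. Its log2 fold change was -0.28 (SE 0.03, FDR 2.00e-12), -0.51 (SE 0.03, FDR 9.44e-43) and -0.66 (SE 0.04, FDR 4.97e-57). CXCL12 and CCL2 were therefore lower than NC in all 4 comparisons, serum included, and no library of another group reached the NC level of either gene.

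CCL7 was 3.48, 3.76 and 2.85 CPM with RES, 7.48, 6.01 and 6.76 CPM with POG and 5.45 and 5.11 CPM with DEG, against 6.35 and 6.51 CPM in NC. Its fall with RES was the largest change of any of the 10 with a compound (log2 fold change -0.94, SE 0.13, FDR 3.20e-11), or 1.91-fold lower. With POG the libraries lay on both sides of NC (log2 fold change 0.07, 95% interval -0.17 to 0.31, FDR 0.811), and with DEG they lay below it without passing the test (log2 fold change -0.28, 95% interval -0.56 to -0.01, FDR 0.203). CCL20 was 6.19, 5.81 and 5.52 CPM with RES, 5.86, 5.90 and 6.56 CPM with POG and 4.70 and 6.06 CPM with DEG, against 6.48 and 6.64 CPM in NC. Its log2 fold changes were -0.17 (FDR 0.396), -0.10 (FDR 0.635) and -0.29 (FDR 0.155), and CCL20 was the only member of the 10 called with no compound. Without DEG replicate 2 its value with DEG was -0.48 (FDR 0.0433).

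**Figure D2:**
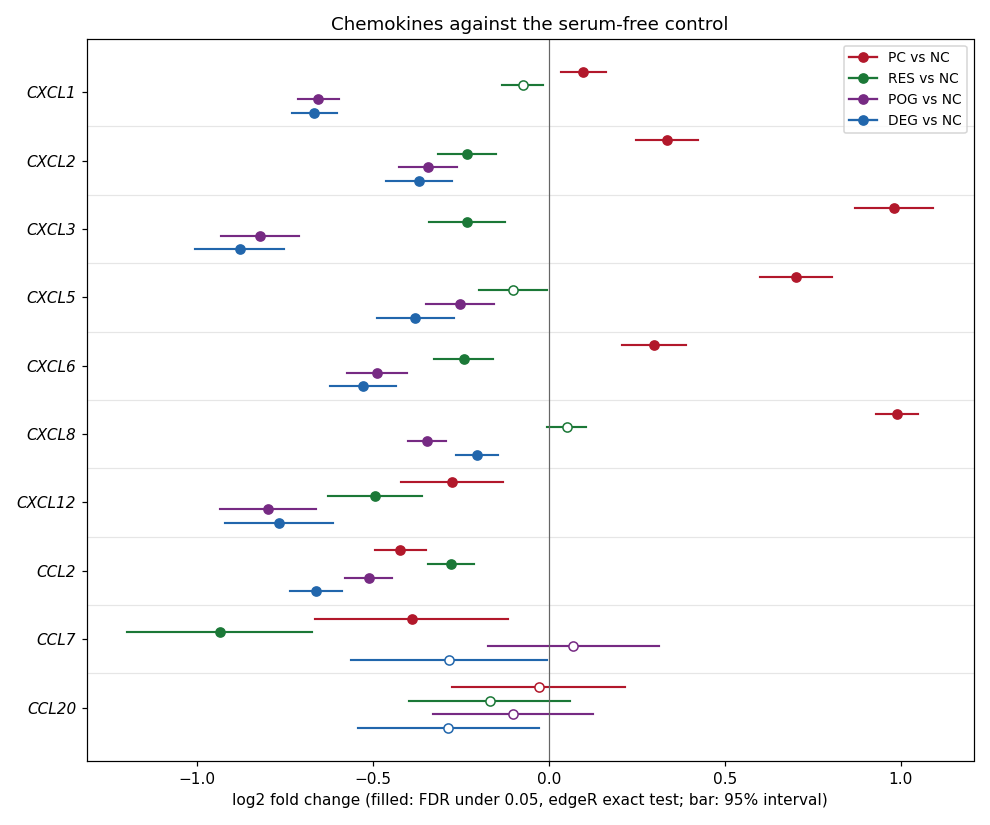
Log2 fold changes against NC on the x axis for each chemokine on the y axis, in PC, RES, POG and DEG, with 95% intervals from edgeR's quasi-likelihood fit as bars and filled points where the FDR was under 0.05. The 6 neutrophil-attracting genes have PC points above 0 and POG and DEG points below 0, CXCL12 and CCL2 have every point below 0, and CCL7 is lowest with RES at -0.94.

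The compounds were compared with each other in 3 pairs, at a concentration of 1 µg/mL that is the same by mass and not by molecule number. FDRs were adjusted over all genes within each pair. Between POG and RES 27.9% of the genes tested were called, 13.7% higher and 14.1% lower with POG, and 9 of the 10 chemokines were called, 8 lower and 1 higher. Between DEG and RES 21.2% of the genes were called, 10.3% higher and 10.8% lower with DEG, and again 9 of the 10 chemokines, 8 lower and 1 higher. Between DEG and POG 1.05% of the genes were called, 0.550% higher and 0.497% lower with DEG, and 2 of the 10 chemokines, 1 in each direction. The chemokine that was higher with POG and with DEG than with RES was CCL7, and the gene not called in either pair was CCL20.

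The largest differences of POG from RES were in CCL7 (log2 difference 1.01, 95% interval 0.77 to 1.24, FDR 4.00e-17), CXCL3 (-0.59, -0.69 to -0.49, FDR 3.36e-28) and CXCL1 (-0.58, -0.63 to -0.53, FDR 4.20e-76). CXCL8 was lower by 1.32 times (log2 difference -0.40, 95% interval -0.45 to -0.35, FDR 1.02e-37), although neither CXCL1 nor CXCL8 had been called with RES against NC. CXCL12 (log2 difference -0.30, FDR 1.91e-05), CXCL6 (-0.25, FDR 9.54e-09), CCL2 (-0.23, FDR 3.34e-11) and CXCL5 (-0.15, FDR 0.00379) were also lower with POG. For CXCL2 the difference was small (-0.11, SE 0.04, FDR 0.0192), and it lost its call without RES replicate 1 (FDR 0.113), POG replicate 1 (FDR 0.0574) or POG replicate 2 (FDR 0.0792). The POG and RES libraries of all these genes did not overlap, but the share of all genes tested without overlap was not computed.

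DEG and RES differed in the same 9 genes. CCL7 was higher with DEG (log2 difference 0.65, 95% interval 0.38 to 0.92, FDR 1.66e-05), and CXCL3 (-0.65, -0.76 to -0.53, FDR 2.32e-25) and CXCL1 (-0.59, -0.65 to -0.53, FDR 7.23e-61) were lower. CCL2 (log2 difference -0.38, FDR 1.92e-22), CXCL6 (-0.29, FDR 8.56e-09), CXCL5 (-0.28, FDR 1.31e-06) and CXCL8 (-0.26, FDR 2.97e-12) were lower as well. The difference in CXCL12 (-0.27, FDR 0.00172) lost its call without DEG replicate 2 (FDR 0.104). That in CXCL2 (-0.14, FDR 0.0142) lost it without RES replicate 1 (FDR 0.0776), DEG replicate 1 (FDR 0.219) or DEG replicate 2 (FDR 0.0528).

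Between DEG and POG the called genes were CXCL8, higher with DEG by 0.14 on the log2 scale (SE 0.03, FDR 0.00598), and CCL2, lower with DEG (log2 difference -0.15, SE 0.03, FDR 0.0126). Their libraries did not overlap, but the calls were lost on leaving out single libraries. The log2 differences then stayed at 0.13 to 0.15 for CXCL8 and -0.18 to -0.12 for CCL2. CXCL8 was no longer called without POG replicate 2 (FDR 0.0912), DEG replicate 1 (FDR 0.223) or DEG replicate 2 (FDR 0.171), and CCL2 was not called without any of the 5 libraries, at FDR 0.0515 to 0.446. For 5 other genes the interval of the difference included 0. It was -0.07 to 0.05 for CXCL1, -0.11 to 0.06 for CXCL2, -0.18 to 0.06 for CXCL3, -0.13 to 0.05 for CXCL6 and -0.12 to 0.18 for CXCL12. CXCL5 (log2 difference -0.13, 95% interval -0.23 to -0.03, FDR 0.269) and CCL7 (-0.35, -0.60 to -0.10, FDR 0.153) lay below POG in both DEG libraries without passing the test over all genes. CCL20 was at -0.18 with an interval of -0.42 to 0.05. The widest intervals were those of CCL7 and CCL20. A missed threshold does not show that the compounds act alike on these genes.

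**Figure D3:**
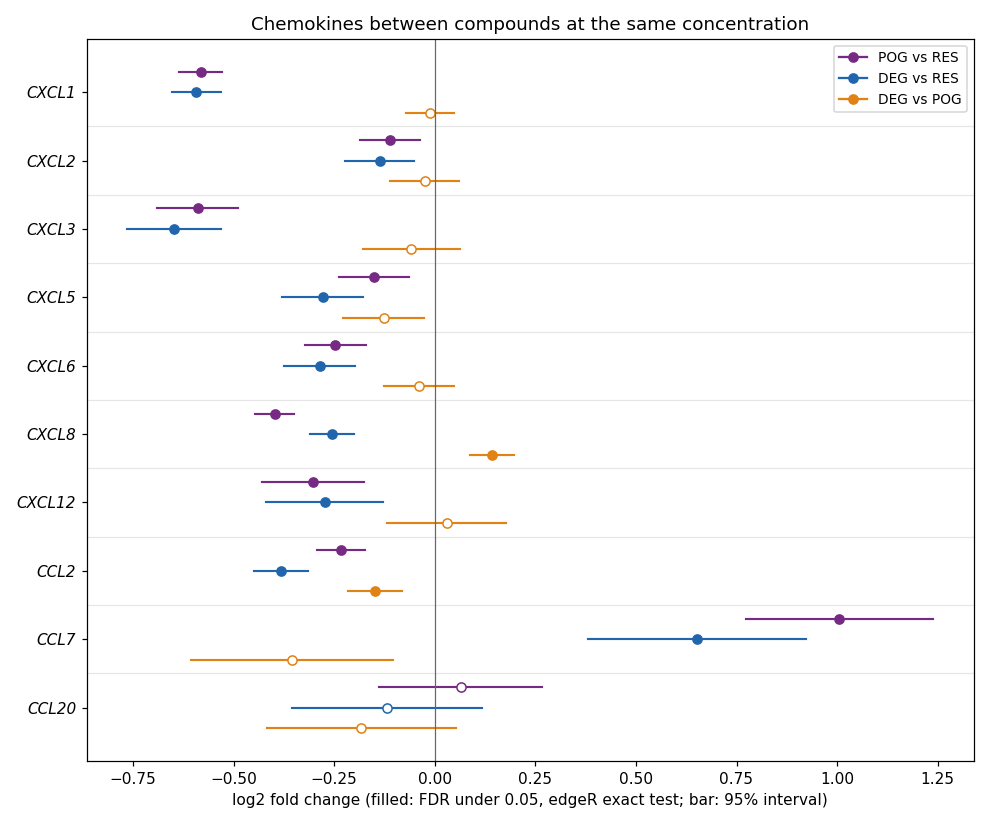
Log2 differences between compounds at 1 µg/mL on the x axis for each chemokine on the y axis, with 95% intervals as bars and filled points where the FDR was under 0.05. POG and DEG points lie below 0 against RES for 8 genes and above 0 for CCL7, whereas DEG against POG is filled for CXCL8 and CCL2 only.

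Ordered by group mean, the genes fell into several sequences. CXCL1, CXCL2, CXCL3, CXCL5 and CXCL6 all ran from PC through NC, RES and POG to DEG. In that order the step from POG to DEG did not pass the test for any of the 5, and the step from NC to RES did not pass for CXCL1 and CXCL5. CXCL8 ran from PC through RES, NC and DEG to POG, with RES and NC not told apart. CXCL12 was highest in NC, then PC, RES, DEG and POG, and CCL2 was highest in NC, then RES, PC, POG and DEG. The step between DEG and POG for CXCL12 did not pass the test. CCL7 alone was highest in POG and lowest in RES, with NC, DEG and PC between, and its steps from POG to NC and from NC to DEG did not pass. CCL20 ran from NC through PC, POG and RES to DEG, and no tested step of it passed. PC was not tested against the compounds. The highest group mean was 3.63 times the lowest for CXCL3, 2.53 times for CXCL8, 2.12 times for CXCL5 and 2.01 times for CCL7. For the other genes it was 1.22 times (CCL20) to 1.78 times (CXCL6).

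The make-up of the chemokine RNA also shifted. The 10 genes together made up 3132 and 2948 CPM in PC, 2094 and 2096 CPM in NC, 1969 to 2038 CPM with RES, 1493 to 1527 CPM with POG and 1541 and 1561 CPM with DEG. CXCL8 and CXCL1 dominate these sums. CXCL8 took 56.8% and 57.2% of the sum in PC and 41.9% and 41.4% in NC, and CXCL1 took 21.8% and 21.6% in PC and 29.4% and 29.5% in NC. Within a library the ratio of CXCL8 to CXCL1 was 2.60 and 2.65 in PC and 1.43 and 1.403 in NC. It was 1.53 to 1.56 with RES, 1.75 with POG in every library and 1.97 and 1.93 with DEG, with no overlap between any of the 5 groups. The ratio of CXCL1 to its paralog CXCL2 was 6.82 in each PC library, 7.95 and 8.15 in NC and 8.91 to 9.02 with RES, but 6.45 to 6.50 with POG and 6.60 and 6.50 with DEG. The ratio of CCL2 to its neighbour CCL7 was 42.2 and 45.6 in PC, 45.3 and 44.1 in NC, 64.2 to 80.5 with RES, 26.7 to 33.7 with POG and 32.7 and 36.2 with DEG. The RES libraries lay above all others, and those of POG and DEG overlapped. These ratios are given as values and were not tested.

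**Figure D4:**
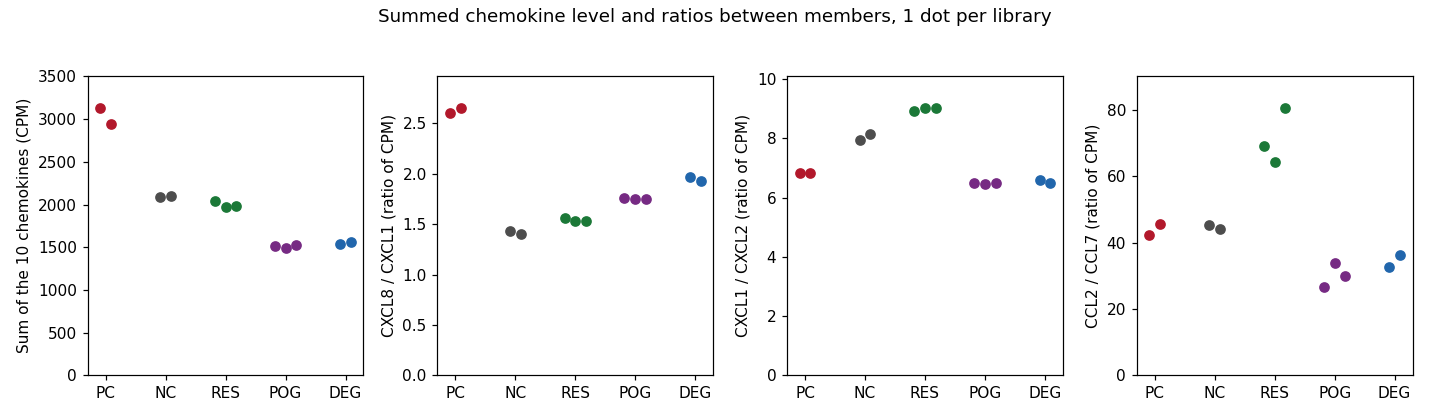
The panels plot, for each library by group on the x axis, the summed CPM of the 10 chemokines and the ratios of CPM of CXCL8 to CXCL1, CXCL1 to CXCL2 and CCL2 to CCL7, each y axis from 0. The sum falls from about 3132 CPM in PC to about 1493 CPM in POG, the ratio of CXCL8 to CXCL1 separates all 5 groups, and the ratio of CCL2 to CCL7 reaches 80.5 with RES.

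Across the 12 libraries the levels of the chromosome 4 genes followed each other. Pearson correlations of log2 CPM were 0.97 for CXCL2 with CXCL3, 0.98 for CXCL3 with CXCL6 and 0.96 for CXCL5 with CXCL8, and the lowest among these 6 genes was 0.76, for CXCL1 with CXCL5. CXCL12 followed CXCL1 (0.86) and CCL2 (0.84), whereas CCL7 had coefficients from -0.44 to 0.26 with the other 9. These are descriptions over 12 libraries that share groups, scaling and culture. By the same measure, among 9904 other genes, SH3BGRL3 (0.994), CTPS1 (0.994) and HK1 (0.994) were most like CXCL8, NPAS2 (0.954), PIGQ (0.9496) and SECTM1 (0.945) were most like CCL2, and LOXL1 (0.968), SLC4A2 (0.962) and COL16A1 (0.958) were most like CXCL12.

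The other chemokine ligands were mostly silent. Of 36 further ligand genes 6 had enough reads to be tested, and the most abundant of the other 30, CXCL10, had 49 reads in all libraries together. CCL5, which attracts T cells and monocytes, was 13.1 and 13.3 CPM in PC, 28.6 and 27.9 CPM in NC, 32.3 to 35.6 CPM with RES, 21.3 to 21.8 CPM with POG and 23.2 and 22.3 CPM with DEG. It was lower with serum (log2 fold change -1.10, SE 0.07, FDR 1.68e-55), POG (-0.39, SE 0.06, FDR 5.97e-09) and DEG (-0.31, SE 0.06, FDR 0.000100) and higher with RES (0.26, SE 0.06, FDR 0.000177). A long non-coding RNA overlaps CCL5 on the opposite strand, so part of its reads cannot be assigned with certainty. CXCL16, a membrane-bound ligand of CXCR6, was 5.16 and 5.50 CPM in PC, 7.70 and 8.45 CPM in NC, 6.93 to 8.03 CPM with RES, 10.8 to 12.2 CPM with POG and 9.71 and 10.6 CPM with DEG. It was lower with serum (log2 fold change -0.60, SE 0.11, FDR 1.29e-06) and higher with POG (0.48, SE 0.10, FDR 2.36e-05) and DEG (0.33, SE 0.11, FDR 0.0263), and it overlaps other genes at both ends. CX3CL1 (fractalkine) was 1.05 and 0.901 CPM in PC and 2.20 and 2.11 CPM in NC (log2 fold change -1.13, SE 0.24, FDR 8.56e-06). Against NC, 4 of the 6 tested ligands were called in PC, 1 in RES, 2 in POG and 2 in DEG. The ligand that was higher with serum was CCL26, named here after its values were seen, with 73 reads in all libraries.

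Receptors for these ligands were scarcely detected. Of 24 receptor genes 5 were tested. CXCR1, CXCR2 and CXCR4 had 3, 30 and 19 reads in all 12 libraries together, and CCR2 and CCR6 had 0. The counts concern RNA only and do not show whether a receptor protein was present. CCR10 was the most abundant tested receptor, with 2102 reads in all libraries. The receptor called with serum and with DEG was CCR7, named after its values were seen. It had 94 reads in all and was lower in both (log2 fold change -1.64, FDR 0.0357 and -2.38, FDR 0.0254).

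Of 39 genes of upstream signals and regulators (interleukin 1, tumour necrosis factor, NF-kB, AP-1 and their feedback genes), 37 were tested. With serum 28 were called, 12 higher and 16 lower, or 75.7% against the 42.4% of all genes. IL1B, a cytokine known to induce these chemokines, was 997 and 939 CPM in PC against 317 and 317 CPM in NC and was called higher (log2 fold change 1.61, SE 0.03). IL1A was 47.8 and 42.2 CPM in PC against 9.79 and 8.15 CPM in NC (log2 fold change 2.33, SE 0.08, FDR 6.26e-158), and FOSL1, a subunit of AP-1, was 405 and 373 CPM against 144 and 142 CPM (1.45, SE 0.04, FDR 2.98e-258). IL1R1, the receptor for both interleukins, was lower with serum, at 95.7 and 96.9 CPM against 171 and 167 CPM (log2 fold change -0.81, SE 0.04, FDR 2.19e-92).

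With the compounds 9 of the 37 regulators were called with RES, 2 higher and 7 lower, and 15 each with POG and DEG, 4 higher and 11 lower in each case. These were 24.3%, 40.5% and 40.5% of the list, where 11.2%, 14.5% and 9.63% of all genes were called. IL6, an inflammatory cytokine, was 1022.5, 1012 and 1019 CPM with RES, 597, 583 and 605 CPM with POG and 621 and 628 CPM with DEG, against 973 and 996 CPM in NC. It was lower with POG (log2 fold change -0.73, SE 0.03, FDR 7.96e-101) and DEG (-0.66, SE 0.03, FDR 1.73e-65), and other genes overlap it. IL1R1 was 149 to 150.2 CPM with RES, 109 to 113 CPM with POG and 115 and 116 CPM with DEG, and was lower with all 3 compounds (log2 fold change -0.18, SE 0.03, FDR 2.16e-05 with RES, -0.61, SE 0.03, FDR 7.33e-63 with POG and -0.55, SE 0.04, FDR 1.23e-41 with DEG). JUN, another AP-1 subunit, was also lower with RES (log2 fold change -0.23, SE 0.03, FDR 3.68e-08), POG (-0.32, SE 0.03, FDR 7.66e-17) and DEG (-0.32, SE 0.04, FDR 2.43e-13). NFKBIA, the NF-kB inhibitor that NF-kB itself induces, was lower with RES (log2 fold change -0.14, SE 0.03, FDR 0.00418), POG (-0.21, SE 0.03, FDR 9.78e-07) and DEG (-0.25, SE 0.04, FDR 1.40e-07). REL, an NF-kB subunit, was higher with POG (log2 fold change 0.28, SE 0.07, FDR 0.00196) and DEG (0.24, SE 0.08, FDR 0.0315). With serum IL6 (log2 fold change -0.41, FDR 3.52e-27), NFKBIA (-0.22, FDR 4.44e-07) and REL (-0.55, FDR 5.64e-10) were lower than in NC. JUN was higher with serum (log2 fold change 0.31, FDR 2.96e-14). With RES the largest changes were in TSC22D3 (GILZ), a glucocorticoid-induced inhibitor of inflammatory signalling (log2 fold change 0.43, SE 0.08, FDR 9.24e-07), IKBKG (-0.37, SE 0.09, FDR 0.00175), ZFP36 (-0.26, SE 0.07, FDR 0.00230) and TRAF6 (0.25, SE 0.08, FDR 0.0172). IKBKG has a near-identical copy, so its value is uncertain. ZFP36 encodes tristetraprolin, which is known to bind AU-rich words in messenger RNA and speed its decay.

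The members' messenger RNAs differed in such words. In the 3′ untranslated region of the Ensembl canonical transcript, ATTTA occurred 10 times in CXCL2, 6 in CXCL1, 7 in CXCL3, 11 in CXCL5, 6 in CXCL6 and 9 in CXCL8, but 1 time each in CCL2 and CCL7, 3 in CCL20 and 5 in CXCL12. Per kilobase this was 14 for CXCL2 and 2.27 for CCL7, the highest and the lowest of the 10, against a median of 1.67 over genes whose region was at least 100 bases long. The longer word TTATTTATT occurred 5 times in CXCL2, 3 times in CXCL1 and 1 time each in CXCL3 and CXCL8, and was found in 8.49% of 19206 coding genes. With POG the 4 genes that held it fell by 0.34 (CXCL2) to 0.82 (CXCL3) on the log2 scale, and 4 that did not hold it fell by 0.25 (CXCL5) to 0.80 (CXCL12). CCL7 (log2 fold change 0.07, FDR 0.811) and CCL20 (-0.10, FDR 0.635), also without it, were not called with POG. ZFP36 itself was not called with POG (log2 fold change -0.04, FDR 0.806) or DEG (-0.11, FDR 0.420). Any part of these words in the differences was not tested.

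Markers of cell types were compared because bulk RNA can hold other cells. COL1A1, COL1A2, SPARC and RUNX2 were expressed in every library, RUNX2 for instance at 49.5 and 44.7 CPM in NC, and the 9 osteoblast markers summed to 5462 and 5524 CPM in PC, 5263 and 5321 CPM in NC, 4907 to 5035 CPM with RES, 4751 to 4786 CPM with POG and 4763 and 4769 CPM with DEG. Of the other osteoblast markers, IBSP had 1 read, SP7 53, BGLAP 644, SPP1 850 and ALPL 2365 reads in all libraries together. The 7 leukocyte markers summed to 2.04 and 2.31 CPM in PC, 1.73 and 1.86 CPM in NC, 2.24 to 2.31 CPM with RES, 1.09 to 1.74 CPM with POG and 1.55 and 1.58 CPM with DEG, with CD3E at 0 and PTPRC at 23 reads in all libraries, and the 3 epithelial markers to 0.258 to 0.688 CPM. The 4 endothelial markers summed to 55.4 to 58.6 CPM in PC, 43.98 to 46.2 CPM in NC, 55.8 to 63.5 CPM with RES, 37.3 to 40.1 CPM with POG and 39.3 to 40.5 CPM with DEG. Nearly all of that was TEK, while CDH5 had 16 reads in all libraries. The endothelial and osteoblast sums were both lowest in POG and DEG, the groups in which CXCL1 and CXCL3 were lowest. The leukocyte sum was also low there, with POG overlapping NC. Among the osteoblast markers COL1A1 averaged 2845 CPM in NC, 2534 CPM with POG and 2484 CPM with DEG. COL1A2 averaged 1347, 1117 and 1121 CPM in these groups. SPARC did not fall with them, at 1046, 1060 and 1106 CPM, nor did RUNX2, at 47.1, 49.2 and 48.0 CPM. The part of the marker sums in the chemokine differences was not tested.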

How the data were processed

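Polyadenylated RNA of the 12 libraries was sequenced as read pairs. The authors deposited raw read counts per Ensembl gene, not normalized. Per the study's methods and the submitters' processing notes, reads were aligned to hg38 with STAR (BWA MEM was also named) and counted with featureCounts, and edgeR's exact test was used. Versions, annotation release, strand setting and the handling of multi-mapped reads are not given in the sources used here. A wrong assignment of multi-mapped or antisense reads would touch CXCL2, CXCL3, CXCL5 and CXCL6 first.

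Every column of the table matched a labelled sample by its title. Of the 43836 genes, 29555 had a read, and filterByExpr by group left 17092 with 99.97% of the reads. Total counts per library ran from 38464619 to 51416358. In R 4.3.3 with edgeR 4.0.16, TMM gave the scaling, the spread of each gene came from all 12 libraries together (common biological coefficient of variation 3.21%), and 7 comparisons were tested with the exact test, two-sided, adjusted by Benjamini-Hochberg over all genes tested and called at an FDR under 0.05. Standard errors and 95% intervals came from the quasi-likelihood fit. The levels printed as CPM and RPKM were computed from these counts with TMM-scaled totals, RPKM with the union of GENCODE v44 exons. Replicate numbers follow accession order and only name samples. The test was tested on simulated data. The alternatives tried were the quasi-likelihood test, DESeq2 1.42.0, DESeq2 size factors, plain totals, no filter and a minimum mean of 1 CPM. Others were dispersions taken only from the 2 groups of a comparison, an FDR under 0.01 and a log2 fold change of at least 0.5. Close paralogs were also summed (CXCL1 with CXCL2 and CXCL3, and CXCL5 with CXCL6), and each library was left out.

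The members and the gene lists were chosen with earlier results of these data known. All 10 members were named. From the lists, genes called against NC and reaching a mean of 1 CPM in some group were named, at most the 4 largest changes per list and comparison. The genes most like CXCL8, CCL2 and CXCL12 were the 3 highest Pearson correlations of log2 CPM (prior count 2) among genes that averaged 10 CPM or more.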

Additional observations from a re-analysis of the deposited data

How the results depend on the processing

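Over the alternatives that change the test, scaling, filter, dispersions, libraries or paralogs, and not the thresholds, 832 of 865 values of the 10 chemokines kept their direction and their side of the threshold, 24 lost their call, 5 gained one and 4, none of them called, changed sign. The sign changes all came from leaving out a library: CCL7 with POG against NC ran from -0.0103 to 0.145, CCL20 with DEG against RES from -0.313 to 0.0522, CXCL6 between DEG and POG from -0.131 to 0.0459 and CXCL12 between DEG and POG from -0.0223 to 0.0800. An added limit of at least 0.5 on the absolute log2 fold change left fewer chemokines called. Against NC they were 3 for PC, 1 for RES, 4 for POG and 5 for DEG. Between compounds they were 3 each for POG and DEG against RES and 0 between DEG and POG. In that last pair the called values were 0.14 (CXCL8) and -0.15 (CCL2). The shares of all genes tested that pass this limit, or an FDR under 0.01, were not computed. At an FDR under 0.01, 1 was called between DEG and POG, and without a library 0 to 1 were. Summing close paralogs gave a log2 fold change with RES of -0.10 for CXCL1, CXCL2 and CXCL3 together (FDR 0.0409) and of -0.19 for CXCL5 and CXCL6 together (FDR 7.03e-05). Among the 865 values each sum was entered once for every gene in it. Set against CXCL1 and CXCL5 alone, these sums with RES are among the gained calls. With dispersions from the 2 groups compared, CXCL1 was no longer called with serum (FDR 0.230), as with no filter (FDR 0.0598), and CCL7 was called between DEG and POG (FDR 0.0378). Without a filter CXCL2 was no longer called between POG and RES (FDR 0.0535). Losses on leaving out a library stand beside the results, and their cause beyond fewer samples was not tested. No paired analysis was possible because the labels give no replicate numbers. CCL7 and CCL20 rest on 127 to 337 and 182 to 320 reads per library, which limits their precision.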
